A study of Mus musculus with 8 samples.

Results

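The Dusp and Sprouty genes encode inhibitors that act back on the MAP kinases, and 10 of them were followed here in mouse cortex: Dusp1, Dusp3, Dusp4, Dusp6, Dusp7, Dusp8, Dusp14, Spry2, Spry4 and Spred1. They were chosen by family and function, as dual-specificity phosphatases and Sprouty or Spred proteins, and not by their measured values. Earlier results of these data were known when the choice was made. All 10 were among the 10588 genes tested, out of 28662 transcripts in the table, and 9 of the 10, Dusp4 being the exception, reached 10 RPM (reads scaled to library size) in every mouse.

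RNA was from the right cerebral cortex of 4 bigenic and 4 nontransgenic C57BL/6 mice. Bigenic mice carried Camk2a-tTa, in which the Camk2a promoter, active mainly in forebrain excitatory neurons, drives the tetracycline transactivator, together with a tetO-controlled human TDP-43 whose nuclear localization signal is mutated (deltaNLS-hTDP-43), so that the protein stays largely in the cytoplasm. All 8 mice were given doxycycline, which holds the transgene off, until 28 days of age, and RNA was taken 10 days after its removal. The controls lacked both transgenes, so the transactivator and the human TDP-43 cannot be told apart in this comparison. The bigenic mice are called A, B, C and D here, and the nontransgenic mice E, F, G and H.

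MAP kinase cascades carry signals from growth factor receptors and synaptic activity through Ras and a chain of kinases to ERK, and from cellular stress to the JNK and p38 kinases. A dual-specificity phosphatase of this class switches a MAP kinase off by removing the phosphates from the threonine and the tyrosine of its activation loop. Sprouty and Spred proteins act higher up, between the receptor and Raf. Several of these genes are themselves transcribed in response to ERK activity, which closes a negative feedback loop, and in cortical neurons Dusp1, like Fos and Arc, is an immediate early gene that follows neuronal firing.

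Firing-dependent transcription often runs through the cyclic AMP response element (CRE), TGACGTCA, so the promoters were searched for it. RefSeq promoters (GRCm38.p6, 250 bases before to 50 bases after each start) were given for 8 of the 10 genes, all but Dusp4 and Spry4. The element was found on at least 1 strand in 2 of the 8, Dusp1 and Dusp8, against 1.79% of 32851 promoters of the same length. The windows below are shown because they hold these matches, together with the only match to the shorter core, TGACG, that was not part of a whole element. Each is written 5′ to 3′ on the strand of the gene, with the match in capitals.

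Dusp1 element, chr17:26508597-26508626, minus strand: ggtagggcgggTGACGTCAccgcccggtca

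Dusp1 core, chr17:26508646-26508675, minus strand: ctcctaggccgaTGACGtctttgcttttgg

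Dusp8 upstream element, chr7:142095373-142095402, minus strand: gcccgctccgcTGACGTCAcctgcccccga

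Dusp8 downstream element, chr7:142095329-142095358, minus strand: ttggctgcaggTGACGTCAggggctttttc

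The Dusp1 element began 143 bases before the start and the lone core 191 bases before it. The elements of Dusp8 began 107 and 63 bases before its start. The core was present in 20.8% of all promoters. Of the other motifs searched on both strands, the E-box CACGTG was found in Dusp1 alone (7.15% of all promoters), and the AP-1 site TGANTCA (7.81%), the EGR site GCGNGGGCG (5.55%) and the CArG box (1.63%) were found in none of the 8. These are matches of letters, and no binding was measured.

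Of the 10 genes, Dusp14 alone differed between the groups by limma with Benjamini-Hochberg correction at 0.05, and it was lower in the bigenic mice. Of all genes tested, 35.9% passed the same threshold, 20.5% higher and 15.4% lower in bigenic mice, so 1 of 10 was a smaller share than the background. At an unadjusted p below 0.05 there were 2 members, Dusp14 and Dusp3, against 46.7% of all genes. The members' values are given as normalized counts, the study's scaled read counts, and log2(fold change) was computed on log2(normalized count + 1), bigenic minus nontransgenic, with a 95% interval. The median log2(fold change) was -0.10 over the 10 members and 0.03 over all genes tested.

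**Figure D1:**
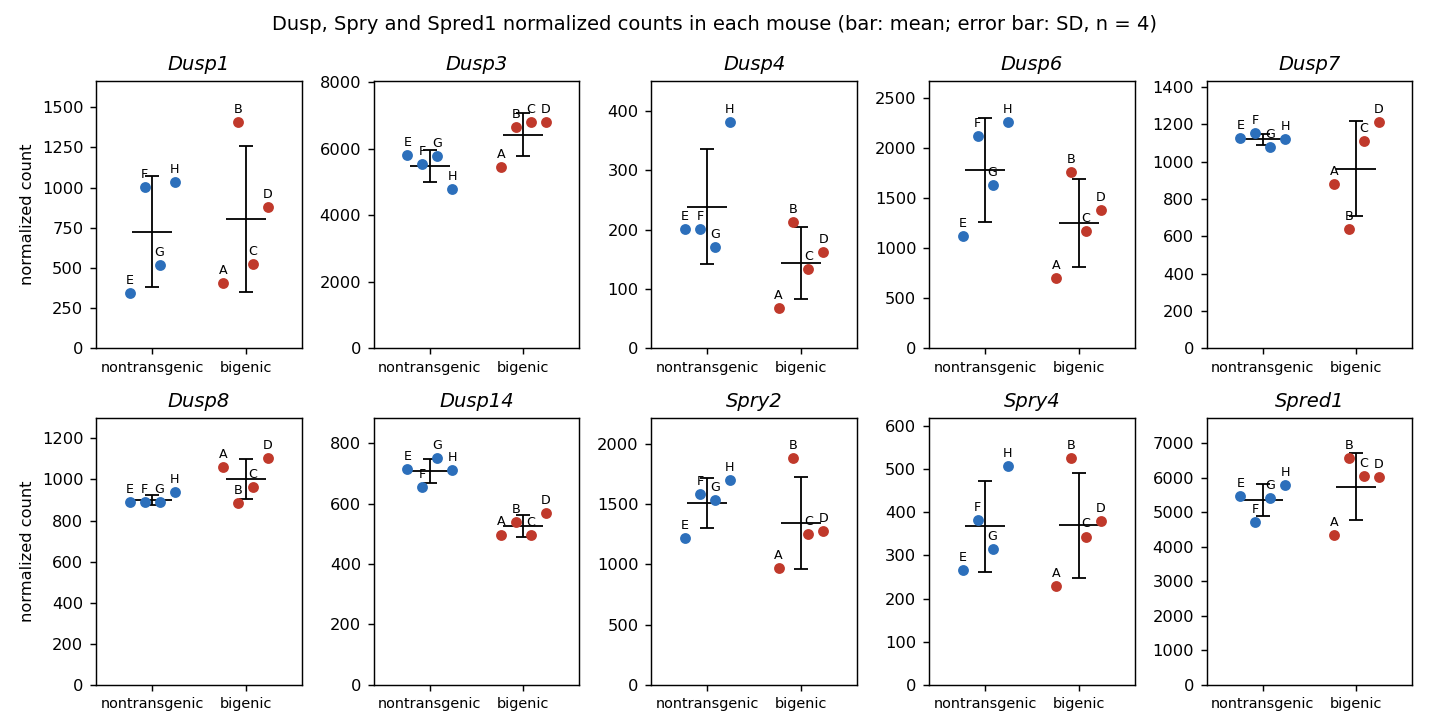
Normalized counts of the 10 genes (y axis, linear scale, one panel per gene) in each mouse, shown by its letter, with the group mean and SD, n = 4 a group. The letters of Dusp14 separate by group, while those of Dusp1 run from 344 to 1410 with the groups interleaved.

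Dusp14, a small atypical phosphatase that lacks the MAP kinase docking domain of the larger family members and also acts on TAB1 in the TAK1 pathway, had normalized counts of 498, 540, 497 and 570 in bigenic mice A to D and 715, 654, 750 and 712 in nontransgenic mice E to H. Every bigenic mouse was below every nontransgenic mouse, as was the case for one direction or the other in 39.0% of all genes tested. The means were 526 ± 35.4 and 708 ± 39.8 (SD, n = 4 each), and the log2(fold change) was -0.43 (SE 0.08, interval -0.61 to -0.24, adjusted p = 0.00345 by limma). Leaving out each mouse in turn gave -0.47 to -0.40, with adjusted p-values of 0.00123 to 0.0163. Its transcript is uc007kqd.1, and the gene lies on the minus strand of mm9 at chr11:83861543-83882763.

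The genes whose log2 profile over the 8 mice was nearest to that of Dusp14 were Sf3b5, Wsb2 and Uap1, by the root mean square difference between values centred on each gene's own mean. These differences were 0.0537, 0.0579 and 0.0600 on the log2 scale. Sf3b5, a splicing factor subunit, had a log2(fold change) of -0.46. Wsb2, a SOCS box protein, had -0.42, and Uap1, an enzyme of UDP-N-acetylglucosamine synthesis, had -0.47.

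Dusp3 (VHR), another small atypical phosphatase, which acts on ERK and JNK, was the most abundant of the 10 and pointed the other way. It had 5453, 6636, 6807 and 6786 normalized counts in bigenic mice A to D. In nontransgenic mice E to H it had 5805, 5535, 5789 and 4786. Bigenic mice B, C and D were above all 4 nontransgenic mice, and mouse A lay within their range. The means were 6420 ± 650 and 5479 ± 478, the log2(fold change) was 0.23 (SE 0.10, interval 0.01 to 0.45), and the limma adjusted p was 0.0946. Without mouse A it was 0.30 with a limma adjusted p of 0.0276, and no other single mouse left out changed the call. With all mice kept but given limma's array weights, Dusp3 was also called (0.25, limma adjusted p = 0.00226).

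Dusp1 (MKP-1) and Dusp4 (MKP-2) are nuclear phosphatases that are induced by signalling and act on ERK, JNK and p38. Dusp1 had 404, 1410, 522 and 882 normalized counts in bigenic mice A to D, and 344, 1005, 520 and 1034 in nontransgenic mice E to H. The spread within each group was far wider than the gap between them. The means were 804.5 ± 452 and 725.8 ± 347, and the interval of the log2(fold change), 0.12, ran from -0.85 to 1.10 (limma adjusted p = 0.842).

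Dusp4 was the least counted gene, with 67, 213, 133 and 163 normalized counts in bigenic mice A to D. Nontransgenic mice E to H had 201, 201, 170 and 382. Mouse A, the lowest, held about 50.7 reads. The groups overlapped through bigenic mouse B, which was above 3 of the 4 controls. The means were 144 ± 61.0 and 238.5 ± 96.8, and the log2(fold change) was -0.77 (interval -1.56 to 0.03, limma adjusted p = 0.117).

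Dusp6 (MKP-3) and Dusp7 (MKP-X) are cytoplasmic phosphatases with a strong preference for ERK. Dusp6 had 700, 1754, 1165 and 1378 normalized counts in bigenic mice A to D and 1119, 2117, 1623 and 2259 in nontransgenic mice E to H. Bigenic mouse A and nontransgenic mouse E were each the lowest of their group, and the groups overlapped. Its means were 1249 ± 440 and 1780 ± 518, and the log2(fold change) was -0.53 (interval -1.18 to 0.11, limma adjusted p = 0.173).

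Dusp7 had 880, 641, 1112 and 1214 normalized counts in bigenic mice A to D. In nontransgenic mice E to H it had 1127, 1152, 1080 and 1124, a much tighter group. Bigenic mice fell on both sides of the controls. The log2(fold change) was -0.26 (interval -0.65 to 0.12, limma adjusted p = 0.258), and it was -0.08 without bigenic mouse B.

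Dusp8 (M3/6), a phosphatase of JNK and p38 with high expression in brain, had 1059, 885, 962 and 1102 normalized counts in bigenic mice A to D. The controls E to H had 889, 888, 890 and 937. Bigenic mice A, C and D were above every control and mouse B was below every control. The log2(fold change) was 0.15 (interval -0.04 to 0.34, limma adjusted p = 0.198).

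Spry2 and Spry4 encode Sprouty proteins, which are phosphorylated after growth factor stimulation and restrain the path from receptor to Ras and Raf. Spry2 had 970, 1880, 1251 and 1277 normalized counts in bigenic mice A to D, and 1217, 1585, 1537 and 1700 in nontransgenic mice E to H. Spry4 had 230, 525, 344 and 380 in bigenic mice A to D, and 266, 383, 314 and 508 in nontransgenic mice E to H. In both genes bigenic mouse A was the lowest of the 8 and bigenic mouse B the highest. The log2(fold change) of Spry2 was -0.20 (interval -0.61 to 0.21, limma adjusted p = 0.424). That of Spry4 was -0.01 (interval -0.58 to 0.56, limma adjusted p = 0.978), with group means of 369.8 ± 121.7 and 367.8 ± 105.1.

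Spred1, a Sprouty-related protein that brings neurofibromin to the membrane to inactivate Ras, had 4331, 6556, 6059 and 6020 normalized counts in bigenic mice A to D. The controls E to H had 5482, 4719, 5404 and 5797. Bigenic mice B, C and D were above all 4 controls and mouse A was below them. The log2(fold change) was 0.09 (interval -0.20 to 0.37, limma adjusted p = 0.614).

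**Figure D2:**
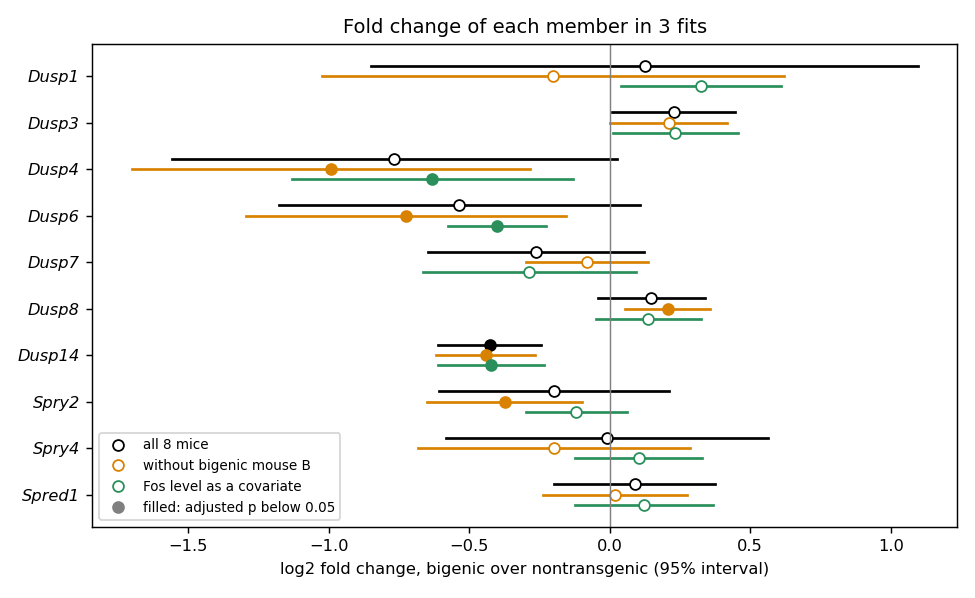
The log2(fold change) of each gene, bigenic minus nontransgenic, with its 95% interval, from the limma fit over all genes, from the fit without bigenic mouse B and from the fit with the Fos level of each mouse as a covariate. The interval of Dusp14 stays below 0 in all 3 fits, and those of Dusp4 and Dusp6 clear 0 both in the fit with Fos, where they are narrower, and in the fit without mouse B. That of Dusp3 stays just above 0 in all 3 fits, without passing the adjusted threshold in any. Without mouse B the interval of Spry2 lies below 0 and that of Dusp8 above it. With Fos that of Dusp1 lies above 0. Filled points have a limma adjusted p below 0.05.

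Bigenic mice A and B bore on several of these values in opposite directions. Without mouse A, the log2(fold change) was -0.44 for Dusp4 (limma adjusted p = 0.258), -0.28 for Dusp6 (0.398) and -0.05 for Spry2 (0.818). Dusp4 was also nearer to 0, at -0.51, without nontransgenic mouse H. Mouse B was the shallowest library, at about 10.6 M reads against up to 31.9 M, and limma's array weights gave it the lowest weight of the 8, 0.0843. Without mouse B, 4 members were called lower: Dusp4 (log2(fold change) -0.99, limma adjusted p = 0.0271), Dusp6 (-0.72, 0.0407), Dusp14 (-0.44, 0.00123) and Spry2 (-0.37, 0.0317). Dusp8 was called higher, at 0.21 (limma adjusted p = 0.0295). In that fit 45.5% of all genes were called, 20.2% lower and 25.3% higher, so that 5 of 10 members was close to the background. With all mice kept but weighted, 4 members were called lower and 3 higher (Dusp3, Dusp8 and Spred1), against 26.9% and 34.1% of all genes (61.0% in all).

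The genes differed in how much they varied between mice. The spread was taken as the highest count divided by the lowest within a group, with 1 added to both. Within the nontransgenic group it was 3.00 for Dusp1, 2.24 for Dusp4, 2.02 for Dusp6 and 1.91 for Spry4, while the median over all genes tested was 1.17. As large a ratio was reached by 0.302%, 0.586%, 0.916% and 1.17% of all genes tested. Spry2 followed at 1.40. Spred1 was at 1.23, Dusp3 at 1.21, Dusp14 at 1.15, Dusp7 at 1.07 and Dusp8 at 1.06. In the bigenic group, where the median over all genes was 1.34, the same 4 genes led, at 3.48 for Dusp1, 3.15 for Dusp4, 2.50 for Dusp6 and 2.28 for Spry4. Spry2 was at 1.94 there, Dusp7 at 1.89 and Spred1 at 1.51, and Dusp14 stayed at 1.15.

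Several of the more variable genes also ranked the mice alike. Dusp1 increased in the order A, C, D, B among bigenic mice and E, G, F, H among nontransgenic mice. Dusp6, Spry2 and Spry4 had this same order in both groups, 3 of the other 9 members, against 123 of the 10588 genes tested (1.16%). Dusp4 shared the order of the bigenic mice. Of 25 tested genes of a list of ERK-responsive transcription factors and immediate early genes, 10 had the order of Dusp1 in both groups: Arc, Egr1, Egr2, Fos, Fosb, Fosl2, Junb, Nr4a1, Nr4a3 and Per1. The counts of Fos, for example, were 213, 1584, 495 and 712 in bigenic mice A to D and 322, 1094, 604 and 1206 in nontransgenic mice E to H. With 4 mice a group these orders are a description, and what set them was not tested. The bigenic order taken alone was shared by 1164 of all genes tested and the nontransgenic order alone by 639. By depth, from the shallowest library up, the mice came in the order B, A, C, D and F, E, G, H, which was not the order of Dusp1.

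**Figure D3:**
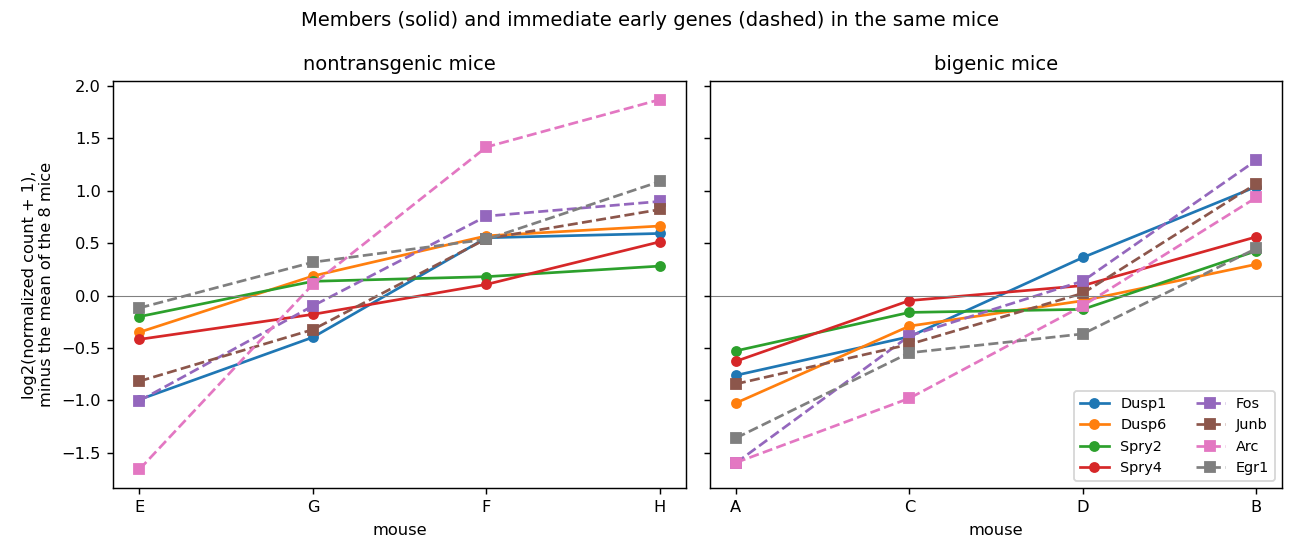
Level of 4 members (solid) and 4 immediate early genes (dashed) in each mouse, as log2(normalized count + 1) minus that gene's mean over the 8 mice, with the mice of each group placed in the order of Dusp1. The other genes shown were picked from those that share the order of Dusp1, so the rise of all 8 lines was fixed by this choice. The lines of Arc and Fos span more than those of Spry2.

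To compare the groups at a like level of these genes, the log2 level of Fos was added to the fit as a covariate, a choice made after seeing the data. Fos itself is an output of ERK, so this comparison sets aside any change that the members share with it. In this fit, 3 of the 10 genes were called, all lower in bigenic mice, where 44.6% of all genes were called and 19.4% were called lower. The log2(fold change) of Dusp6 was -0.40 (SE 0.08, interval -0.58 to -0.23, limma adjusted p = 0.00288). Dusp4 had -0.63 (SE 0.22, limma adjusted p = 0.0435) and Dusp14 -0.42 (limma adjusted p = 0.00325). For Dusp6 the standard error fell from 0.29 to 0.08 while the log2(fold change) moved from -0.53 to -0.40. Dusp1 was at 0.32 (SE 0.13, limma adjusted p = 0.0620), Spry2 at -0.12 (0.254) and Spry4 at 0.10 (0.425).

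Fos shared the mouse order of Dusp1, Dusp6, Spry2 and Spry4, so its choice as covariate largely fixed which members would follow it. The fitted change per unit of log2 Fos level is given as a description only. It was 0.73 (SE 0.07) for Dusp1, 0.49 (SE 0.12) for Dusp4, 0.48 (SE 0.04) for Dusp6, 0.41 (SE 0.05) for Spry4 and 0.29 (SE 0.04) for Spry2. Spred1 was at 0.12, Dusp3 and Dusp14 at 0.02, Dusp8 at -0.04 and Dusp7 at -0.09. Dusp1 and Dusp8 were the members with a CRE match, and whether such matches bear on these slopes was not tested.

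**Figure D4:**
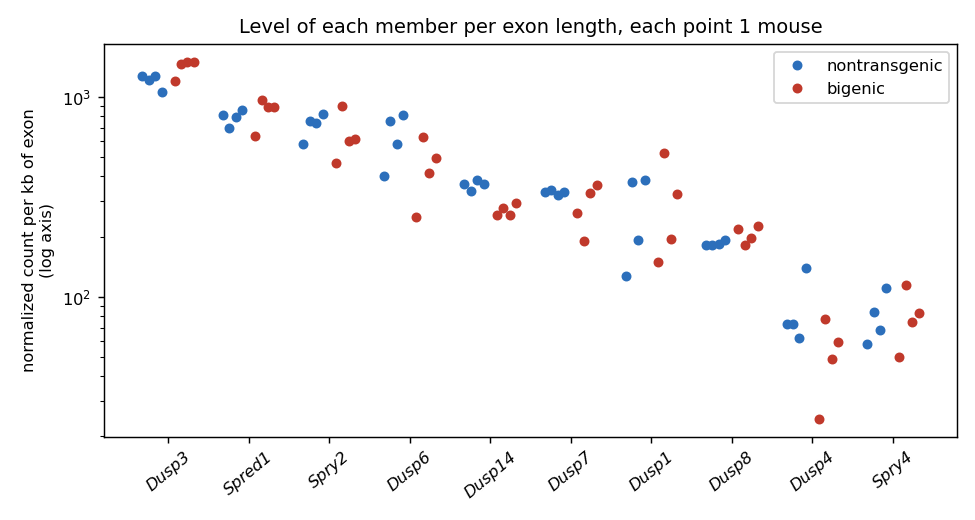
Normalized count per kilobase of exon, merged over all annotated transcripts, of the 10 genes in each mouse. The y axis is on a log scale, each point is 1 mouse, and genes are ordered by the nontransgenic mean. The nontransgenic means run from 1203 for Dusp3 to 80.2 for Spry4.

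Levels can be set against each other between genes only roughly, once divided by exon length. The length was merged over all annotated transcripts of a gene, while the counts sum the exons of a single transcript. Where the annotation holds further exons, the value per kilobase is too low. In nontransgenic cortex the mean normalized count per kilobase of exon was 1203 for Dusp3, 789 for Spred1, 724 for Spry2, 636 for Dusp6, 364 for Dusp14, 334 for Dusp7, 269 for Dusp1, 185 for Dusp8, 87.0 for Dusp4 and 80.2 for Spry4. The ranges of neighbours in this order overlapped among the 4 nontransgenic mice, except between Dusp3 and Spred1, between Dusp6 and Dusp14 and between Dusp8 and Dusp4. Dusp3 lay between 1051 and 1275 per kilobase and Spred1 between 696 and 855. In bigenic mice the means were 1410 for Dusp3 and 846 for Spred1, and the means of Dusp6 and Dusp14 were 447 and 271. None of the 10 genes shares exon sequence with another annotated gene, on either strand, in the mm9 annotation used.

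The remaining positions in mm9 are chr17:26642535-26645464 for Dusp1 (minus strand, transcript uc008bee.2), chr11:101832457-101848327 for Dusp3 (minus, uc007lqa.2) and chr8:35870351-35882948 for Dusp4 (plus, uc009lks.1). Dusp6 lies at chr10:98725865-98730122 (plus, uc007gxk.2), Dusp7 at chr9:106270963-106278055 (plus, uc009rjm.2) and Dusp8 at chr7:149265395-149281748 (minus, uc009kmn.1). Spry2 lies at chr14:106291166-106296036 (minus, uc007uxy.2), Spry4 at chr18:38745922-38760922 (minus, uc008esl.1) and Spred1 at chr2:116947110-117008015 (plus, uc008lri.1). The counts sum the exons of each of these transcripts.

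Around these inhibitors, 47 of the 142 tested genes of 7 pathway lists were called (33.1%), close to the 35.9% of all genes, with calls in both directions. Of 12 tested genes among the other Dusp, Sprouty and Spred genes, 2 were higher and 2 lower in bigenic mice by limma adjusted p (median log2(fold change) -0.20). Spry3, a further Sprouty, rose from 210.5 ± 26.4 to 318 ± 24.5 normalized counts (0.60, adjusted p = 0.00371), and Dusp22, an atypical phosphatase that acts in the JNK pathway, rose by 0.42 (adjusted p = 0.00882). Dusp18, an atypical phosphatase also found in mitochondria, fell from 834 ± 27.8 to 527 ± 30.9 (log2(fold change) -0.66, adjusted p = 0.000225). Dusp28 fell as well (-0.80, adjusted p = 0.00179), but its exons overlap those of 5033417F24Rik and strand was not stated for the counting.

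Of 17 other ERK pathway inhibitors, 3 were higher and 1 lower (median 0.10). Cblb, a ubiquitin ligase for activated receptors, rose by 0.62 on the log2 scale (limma adjusted p = 0.00108) and Ptprr, a tyrosine phosphatase of ERK, 0.33 (0.0249). Lrig1, which lowers ErbB receptors, had -0.54 (0.00408). Of 23 growth factor receptors and adaptors, 2 were higher, Frs2 (0.65, 0.000938) and Irs1 (0.54, 0.0102), and 3 lower, among them Fgfr2 (-0.44, 0.00843) and Gab1 (-0.37, 0.0108), with a median of -0.07.

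In the list of Ras, its exchange factors and the ERK kinases, 4 of 28 genes were higher and 5 lower (median 0.02). Rasgrf2, a calcium-regulated Ras exchange factor of neurons, fell from 6001 ± 352 to 2352.5 ± 201.5 normalized counts (log2(fold change) -1.35, limma adjusted p = 1.28e-05). Its relative Rasgrf1 was higher (0.39, 0.00498), as was the scaffold Ksr1 (0.40, 0.00932), and the exchange factor Rasgrp3 was lower (-0.40, 0.00579). Of 28 genes of the JNK and p38 cascades, 11 were higher and 4 lower (median 0.18). Map3k13 (0.82, 0.00494) and Map3k10 (0.67, 0.00136), kinases at the head of the JNK cascade, were higher. Mapk9, which encodes JNK2, a substrate of Dusp enzymes, fell from 5972 ± 313 to 2890.5 ± 214.6 (-1.05, 2.46e-05), and Mapk14, which encodes p38 alpha, had -0.39 (0.00995).

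Of 9 kinases activated by MAP kinases, Mapkapk2 (log2(fold change) 0.32, limma adjusted p = 0.0275) and Rps6ka4 (0.46, 0.0487) were higher and Rps6ka5 (-0.51, 0.0263) was lower. Of the 25 ERK-responsive transcription factors and immediate early genes, Elk1 was higher (0.25, 0.0435) and 6 were lower, with a median of -0.35 over the list. By adjusted p the first were Jun (-0.86, limma adjusted p = 0.0016) and the activity-dependent factor Npas4 (-1.02, 0.00342), and by size the first was Egr2 (-1.91, 0.0475). Of the other genes named here, Ptprr, Lrig1, Irs1, Fgfr2, Ksr1, Map3k13, Elk1 and Jun, and of the markers Slc1a2, Csf1r and Ttr, also have exons that overlap those of another annotated gene. Spry3 was not in the annotation used, so its overlap was not checked.

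**Figure D5:**
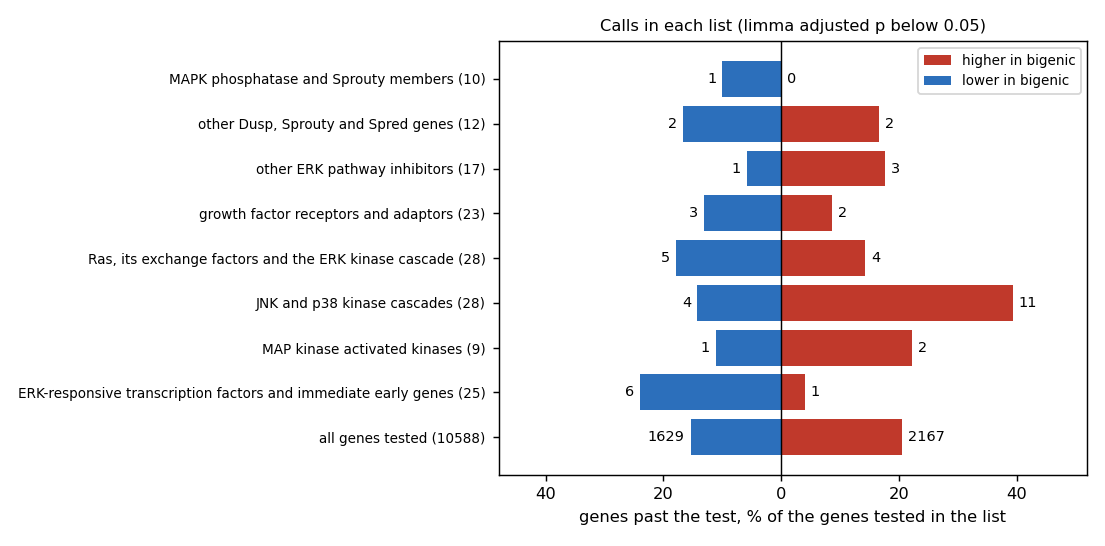
Share of tested genes in each list that were called higher (right) or lower (left) in bigenic mice by limma adjusted p, with the number of genes at the end of each bar and the number tested in parentheses. The 10 members have 1 call, and the list of JNK and p38 cascades has 11 higher and 4 lower.

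Markers of the cell types in cortex were read against the same background, 20.5% of all genes called higher and 15.4% lower. Of 11 neuron markers tested, 6 were lower and 1 higher (median log2(fold change) -0.32), with summed normalized counts of 134178 to 177823 in bigenic and 185969 to 202851 in nontransgenic mice, and Snap25, the most abundant, at -0.38. In bulk cortex, fewer cells of a type and less RNA per cell cannot be told apart. Astrocyte markers had 4 of 12 lower (133217 to 152572 against 161719 to 172922, with Slc1a2 at -0.25) and microglia markers 5 of 9 (5268 to 6873 against 7057 to 8321, with Csf1r at -0.33). Endothelial and mural markers had 2 of 10 lower (5439 to 5764 against 5604 to 7247, with Flt1 at -0.26), and oligodendrocyte and precursor markers 1 of 13 higher (69147 to 92521 against 71384 to 88640). Of 14 choroid plexus markers 9 were not tested, and 4 of the 5 tested, Clic6, F5, Kl and Prlr, reached 10 RPM in no nontransgenic mouse, so that the filter itself fixed their direction. Ttr, which reached it in every mouse, had 7741 to 18520 normalized counts in bigenic and 236 to 1023 in nontransgenic mice (4.34). No marker tested was at 0. Microglia markers had a median of -0.40 on the log2 scale, with -0.21 for astrocyte, -0.16 for oligodendrocyte and -0.14 for endothelial and mural markers. Dusp14 was at -0.43, and the part of cell composition in any member's value was not tested. Endogenous Tardbp, the mouse TDP-43 gene, was at 5180 ± 249 against 6538 ± 420 (-0.33, limma adjusted p = 0.00645).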

How the data were processed

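Poly(A) RNA of 8 mice was sequenced. Per the methods of the study, reads were trimmed with cutadapt, mapped to mm9 with Bowtie 0.12.7, counted per exon with bedtools if uniquely mapped, and summed per transcript. Whether counting used strand is not given in the sources used here. The deposited values are normalized counts that the authors rounded to whole numbers, treated here as a score and not as raw counts. Column totals were 20.1 to 22.0 M. The worth of 1 read, estimated from steps between low values (8 of 8 simulated steps recovered), ran from 0.648 to 2.07, so that the limit of 3 reads lay at 1.94 to 6.20 and depth at about 10.6 to 31.9 M reads. That limit covers counting error only. Columns name single mice but carry none of the replicate numbers of the labels, so mice are given letters in column order.

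A second deposited table holds the authors' DESeq2 comparison. Its fold changes, standard errors, p-values and q-values were not used. The mean signal per gene that the authors computed from the normalized counts of all mice, as deposited in this table, served to check the scale of the first table, and its gene names were used.

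Genes with at least 10 RPM in at least 1 mouse were tested with limma 3.58.1 (R 4.3.3, lmFit, eBayes with trend) on log2(normalized count + 1), 4 bigenic against 4 nontransgenic mice, with Benjamini-Hochberg correction over all 10588 genes and a threshold of 0.05. The script was tested on simulated data. The p-values set the difference between the groups against the spread between mice within them. Alternatives were other pseudocounts (10 and 0.1), filters, scalings, array weights and leaving out each mouse. Adding voom on approximate reads and a Fos covariate was decided after seeing the data. Positions, exon lengths and overlaps came from GENCODE vM1 (mm9), and promoters from RefSeq GRCm38.p6. Python 3.11.15, numpy 2.4.6, pandas 2.3.3 and matplotlib 3.10.9 were used.

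The 10 members and all lists were chosen with earlier results of these data known. Named were all members, the 2 called genes with the smallest adjusted p in each direction of each of the 7 pathway lists, the most abundant gene of each marker list (1 of them is not reported here) and the 3 genes nearest in profile to the member with the smallest adjusted p. Tardbp, the choroid plexus genes other than Ttr, and the genes that share the mouse order of Dusp1, were named outside this rule, after their values were seen, as were genes in the closing section other than members.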

Additional observations from a re-analysis of the deposited data

Results flagged for a closer look

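In each of the 20 groups formed by the 10 members and the 2 genotypes, the gap between an extreme mouse and its nearest neighbour was set against the whole range of the 4 mice (Dixon's test at 95%). Chance passes about 1 in 20 such groups, and 3 passed. Bigenic mouse A had 5453 normalized counts of Dusp3, below the other bigenic mice, with a gap of 0.874 of the range. Nontransgenic mouse H had 382 normalized counts of Dusp4, above the other controls, at 0.854 of the range. The same mouse had 937 normalized counts of Dusp8 against 888 to 890 in the other controls, at 0.959 of the range, in a group that differs little in absolute terms. The cause of these values was not tested.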

How the results depend on the processing

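No paired analysis was possible because the columns carry no replicate number of the labels. Dusp14 was lower and past the threshold under every alternative run. Dusp1, Dusp7 and Spry4 changed sign in some, and the cause was not tested. Dusp1 ranged from -0.20 (without bigenic mouse B) to 0.40 over single mice left out, at -0.19 without nontransgenic mouse E, and Spry4 from -0.20 to 0.20. With array weights Dusp7 was at 0.0196 and Spry4 at 0.0538, and with Fos as a covariate Spry4 was at 0.10.

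Array weights called 6455 genes in place of 3796, 3 members higher and 4 lower, 13 of the ERK-responsive list (7 in the reported fit), 18 of the Ras and ERK list (9), 12 receptors and adaptors (5), 7 other Dusp and Sprouty genes (4) and 13 other ERK inhibitors (4). The Fos covariate called 3 members lower, and 14, 8 and 7 genes of the ERK-responsive, receptor and other inhibitor lists. Without a filter on low values the ERK-responsive list had 4 calls, and with the filter in every mouse the other Dusp and Sprouty genes had 2 and Dusp4 was not tested. Of the genes called under quantile scaling, 52.1% were higher, against 57.1% of those called in the reported fit.

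With single mice left out, the counts ran from 2654 to 4817 over all genes, 0 to 1 for members higher, 1 to 4 for members lower, 4 to 12 for the ERK-responsive list, 8 to 18 for JNK and p38, 0 to 3 for MAP kinase activated kinases, 5 to 13 for Ras and ERK, 5 to 8 for receptors, 4 to 6 for other Dusp and Sprouty genes and 2 to 10 for other inhibitors. Over all alternatives, 147 values of members kept direction and side of the threshold, 13 passed it newly and 9 changed sign.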

Other observations

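With the Fos level of each mouse as a covariate, the ERK-responsive and immediate early genes had calls in both directions. Of the 24 tested in that fit, 10 were lower and 4 higher in bigenic mice, where 19.4% of all genes were lower and 25.2% higher. Egr2 (log2(fold change) -1.61, limma adjusted p = 0.000416), Egr1 (-0.75, 0.000543), Egr3 (-0.93, 0.00101) and Npas4 (-0.94, 0.000206), transcription factors that respond to neuronal activity, were lower, as Dusp6 and Dusp4 were. Nr4a1, an orphan nuclear receptor, was higher (0.89, 0.000259), as were Nr4a3 (0.53, 0.0172) and the clock gene Per1 (0.80, 0.00517). Etv5, an ETS factor downstream of ERK, had -0.39 (0.0785). In the reported fit, without the covariate, Egr1 (limma adjusted p = 0.0680), Nr4a1 (0.333), Nr4a3 (0.294) and Per1 (0.126) were not called. Egr2, Egr3 and Npas4 were called lower there too. Without bigenic mouse B and without the covariate, 11 of 25 were lower and 1 higher, against 20.2% and 25.3% of all genes. The fit with the covariate was chosen after seeing the data, and what set these directions was not tested.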
